A study of Mus musculus with 7 samples.

Results

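The 4 arrays labelled as Gfi1 knockout fell into 2 pairs, replicates 1 and 2 and replicates 3 and 4, and the genes that separate these pairs are described here together with the place of wild type. The pairing was seen in the expression values and stands in no label. The comparison takes in 4 of the 7 arrays of the series, with the other 3, all wild type, set beside them. The genes were chosen by their log2 intensities on these 4 arrays. A gene was counted where each of the 4 differences between an array of one pair and an array of the other was at least 2-fold. Of 9999 genes, 200 (2.00% of all genes) were higher in replicates 1 and 2 and 153 (1.53%) were higher in replicates 3 and 4. Counts of gene list members given below are to be read beside these shares. Since the same values chose the pairs and the genes, every difference between pairs is a description and carries no test.

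All 7 arrays hold RNA of RAW264.7 cells, a macrophage-like mouse line, grown in DMEM with fetal bovine serum and antibiotics. The cells were left untreated and are labelled T0. The wild-type group is titled RAW WT (replicates 1 to 3) and the knockout group RAW GfI1-1 (replicates 1 to 4). The labels call the replicates biological. They do not name separate cultures, days or clones, nor the method or place of the edit, so whether 1 knockout clone or several were used is not given in the sources used here. Any p-value below therefore measures only the spread between these arrays.

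Gfi1 binds DNA through zinc fingers and acts as a transcriptional repressor in blood cell formation. Macrophages that sense microbial material make type I interferon, which acts through its receptor, STAT2 and IRF9 on a DNA element called ISRE and switches on antiviral genes. In parallel, NF-kB and AP-1 drive cytokines, chemokines and short-lived early response genes, many of them feedback inhibitors.

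Gfi1 itself had a log2 intensity of 4.93 and 5.02 in replicates 1 and 2, 3.97 in both replicates 3 and 4, and 2.66, 2.85 and 2.98 in wild type. The gene that the label says was knocked out was thus higher on all 4 arrays labelled knockout, at a low signal. Where its probes lie relative to the edit is not known, so this does not check the labels, and "knockout" means below only the arrays labelled so.

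Median intensity per array lay between 93.8 and 101. On all probe sets, log2 differences had an SD of 0.16 between replicates 1 and 2, 0.14 between replicates 3 and 4, and 0.52 to 0.54 between arrays of different pairs. Only 3 genes differed 2-fold between replicates 1 and 2 and 2 genes between replicates 3 and 4, against 446 to 481 across pairs. The 13 measured macrophage markers of 14 listed had a summed intensity of 45794 to 45988 in wild type, 31423 to 32006 in replicates 1 and 2 and 29941 to 30181 in replicates 3 and 4. Of the marker lists for other cells, 2 of 13 B cell genes, 2 of 15 T or NK cell genes and 0 of 13 neutrophil genes were measured. The summed B cell markers (Ighm and Bank1) lay at 932 to 941 in replicates 1 and 2, 570 to 585 in replicates 3 and 4 and 752 to 828 in wild type. A sum follows the brighter gene. The median log2 difference of these 2 genes from wild type was -0.63 in replicates 1 and 2 and -1.36 in replicates 3 and 4. In each pair 1 of the 2 was at least 2-fold below wild type. In the same order, the summed T or NK cell markers (Cd5 and Il7r) lay at 35.4 to 37.0, 19.6 to 20.9 and 22.3 to 26.1. This sum too hides a split: Cd5, which is dim, was above wild type in both pairs, by 2.41 and 1.17 log2. In the limma fit given below, 1 of the 2 genes, Cd5, was called higher in knockout and 1 lower. The sum of 5 of 12 erythroid and megakaryocyte genes lay at 147 to 150, 156 to 172 and 210 to 235. Of 13 dendritic and mast cell genes 1 was measured, Bst2, which interferon also raises, at 1720 to 1884, 994 to 1054 and 634 to 700. Of 12 fibroblast and epithelial genes 1 was measured, Pdgfrb, at 5.81 to 7.38, 6.31 to 6.80 and 14.7 to 15.2. Whether other cells play a part in the pair difference was not tested.

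**Figure D1:**
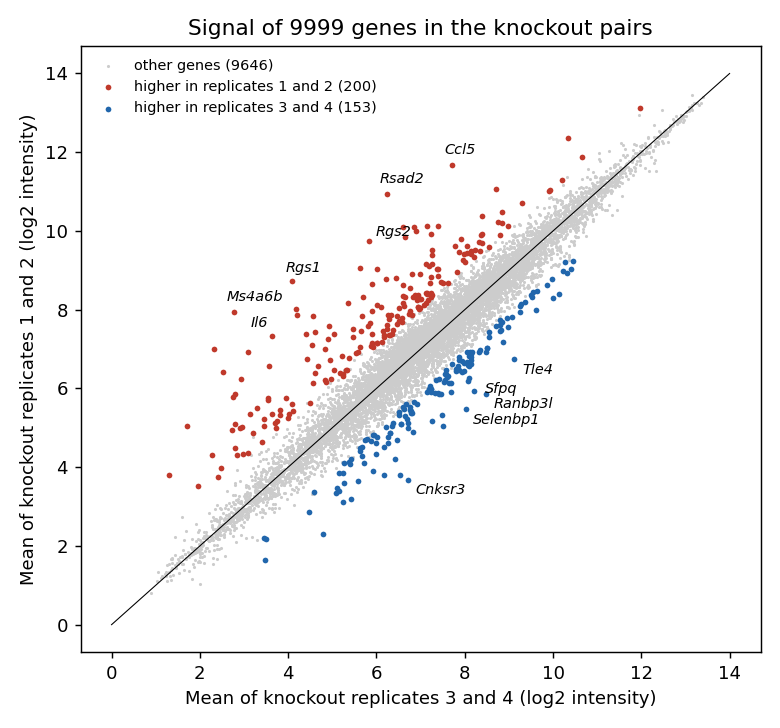
Mean log2 intensity of 9999 genes in knockout replicates 3 and 4 (x axis) against knockout replicates 1 and 2 (y axis), 1 point per gene. The 200 genes higher in replicates 1 and 2 (red) reach farther from the line of equal signal than the 153 genes higher in replicates 3 and 4 (blue).

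The differences were larger on the side of replicates 1 and 2. All 4 differences reached 4-fold for 49 genes higher in replicates 1 and 2 and for 11 genes higher in replicates 3 and 4, and they reached 8-fold for 17 genes and 0 genes. Inside the pairs, the median difference among the counted genes was 0.07 log2 for replicates 1 and 2 and 0.08 for replicates 3 and 4. The largest was that of Il1rn, the interleukin 1 receptor antagonist, at 1.92 in replicate 3 and 3.67 in replicate 4. At the edge of the rule lay Eva1b (smallest of the 4 differences 1.003) and C1galt1 (1.005) just inside, with Plagl2 (0.995) and Irgm1 (0.995) just outside. On the other side Etfbkmt (-1.002) and Kif20a (-1.004) were just inside, and Id1 (-0.996) and Sos1 (-0.995) just outside.

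The lower pair had a signal under log2 3.54, the lowest 5% of genes, for 28 of the 200 and 11 of the 153 genes, and the size of those folds is uncertain. With 64 added to every intensity before log2, which shrinks differences between dim signals, 90 and 32 genes remained of the 200 and 153. Without the genes in the lowest 40% by mean signal, 94 and 84 remained.

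The wild-type arrays, which the rule used only to choose a gene's probe set, lay near replicates 3 and 4 for 150 of the 353 genes and near replicates 1 and 2 for 23. A pair was called near wild type where its mean was under 0.5 log2 from the wild-type mean. Over all genes, too, replicates 3 and 4 were the nearer pair. Between an array of replicates 3 and 4 and a wild-type array 617 to 667 genes differed 2-fold, against 1284 to 1330 for replicates 1 and 2. Of the 200 genes higher in replicates 1 and 2, 67 had wild type near replicates 3 and 4 and 15 had it near replicates 1 and 2. Another 93 had both pairs on one side of wild type, 83 of them above it and 10 below it, and 25 had wild type between the pairs. Of the 153 genes higher in replicates 3 and 4, 83 had wild type near replicates 3 and 4 and 8 had it near replicates 1 and 2. A further 47 had both pairs on one side, 42 below and 5 above wild type, and 15 had wild type in between. The median of the 200 genes was 1.82 log2 above wild type in replicates 1 and 2 and 0.28 above it in replicates 3 and 4. That of the 153 genes was -1.63 in replicates 1 and 2 and -0.20 in replicates 3 and 4. All 4 knockout arrays lay on one side of all wild-type arrays for 124 of the 200 (62.0%) and 96 of the 153 genes (62.7%), against 54.5% of all genes.

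**Figure D2:**
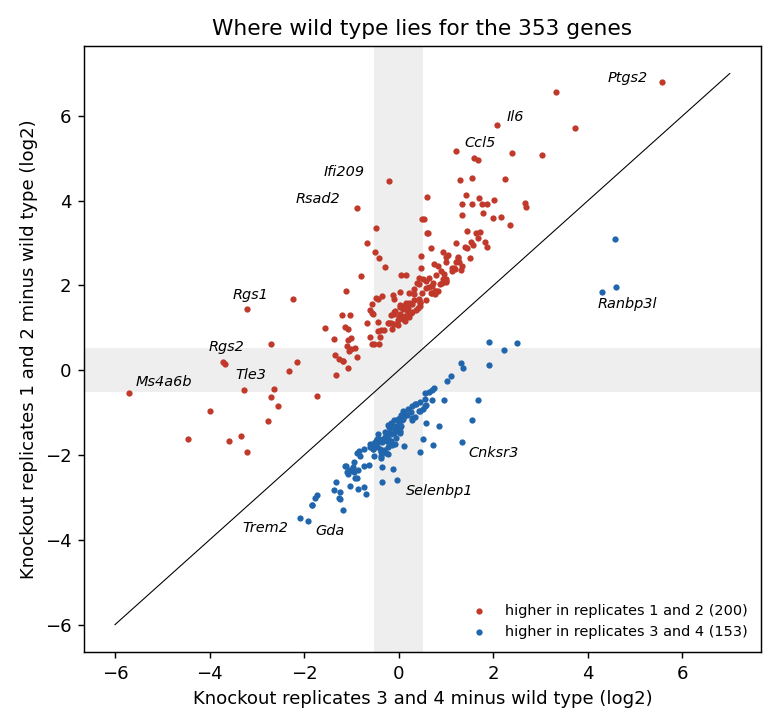
Mean of knockout replicates 3 and 4 minus wild type (x axis) against mean of knockout replicates 1 and 2 minus wild type (y axis), both in log2, for the 353 genes. Grey bands mark differences from wild type under 0.5; many red and blue points lie in the vertical band, where replicates 3 and 4 are near wild type, and few in the horizontal one.

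Genes that interferon switches on were the most numerous of the listed groups among those higher in replicates 1 and 2. Of 35 measured members of the interferon list, 19 were counted as higher in replicates 1 and 2 and 0 as higher in replicates 3 and 4. The median difference was 1.08 log2, against 0.02 over all genes. Both of replicates 1 and 2 lay above both of replicates 3 and 4 for 33 of the 35, as for 42.7% of all genes. The median member was 1.58 and 1.53 log2 above wild type in replicates 1 and 2 and 0.27 and 0.26 in replicates 3 and 4. Both of replicates 1 and 2 were at least 2-fold above wild type for 24 members (5.90% of all genes) and both of replicates 3 and 4 for 5 (2.62%). In bulk RNA a change in the share of responding cells and a change of RNA per cell cannot be told apart.

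Rsad2 encodes viperin, an antiviral enzyme. Its log2 intensity was 10.93 and 10.95 in replicates 1 and 2, 6.19 and 6.27 in replicates 3 and 4, and 7.24, 7.09 and 7.03 in wild type. The pairs were 26.1-fold apart and wild type lay between them, nearer to replicates 3 and 4. All 3 probe sets of the gene gave a difference of this size, with smallest differences of 4.65, 4.81 and 4.38. Cmpk2, a mitochondrial nucleotide kinase that is its neighbour on chromosome 12, had the same order, with 7.13 and 7.08, then 4.58 and 4.52, and 6.08 to 6.14 in wild type.

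Ifit1 and Ifit2, which bind foreign RNA and block its translation, are neighbours on chromosome 19. Ifit1 was at 7.87 and 7.85 in replicates 1 and 2, 4.28 and 4.11 in replicates 3 and 4, and 4.63 to 5.17 in wild type. Ifit2 was at 10.00 and 9.99, then 6.89 and 6.91, with wild type at 6.34 to 6.46. Both were far above the other 5 arrays in replicates 1 and 2. Oasl2, of the oligoadenylate synthetase family, was at 6.99 and 6.88 in replicates 1 and 2 and at 3.21 and 2.98 in replicates 3 and 4, where it lay inside or below the wild-type range of 3.07 to 3.96. Zbp1, a sensor of Z-form nucleic acid, stood at 9.05 and 9.03, at 5.97 and 6.04, and at 5.32 to 5.69 in wild type. With 64 added the difference of Ifit1 shrank from 3.67 to 1.85 and that of Oasl2 from 3.84 to 1.36, since their lower values are dim.

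The RNA sensors Ddx58 (RIG-I) and Ifih1 (MDA5) were among the 19. Ifih1 was at 9.94 and 9.93 in replicates 1 and 2, 8.38 and 8.40 in replicates 3 and 4, and 7.80 to 7.83 in wild type. So were Usp18, which removes ISG15 from proteins and damps interferon signalling, and Isg20, a ribonuclease. Not every member followed. Sp100, of nuclear bodies, was among those not counted, and Ifi27 lay below wild type in both pairs, as the map of the interferon genes shows.

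The ISRE was searched in the promoters of these genes, since it is the element through which interferon acts. Promoters of 300 bases, 250 before to 50 after the start site, were found in a RefSeq table (GRCm38.p6) for 8192 of the 9999 genes. The letters searched were GAAA, any 2 bases and GAAA, on either strand. They stood in 3.04% of all promoters. They stood in 19 of 156 promoters (12.2%) of genes higher in replicates 1 and 2 and in 3 of 121 (2.48%) of genes higher in replicates 3 and 4. Of the 26 interferon list promoters 13 held the motif, among them 5 of the 13 whose genes were counted between pairs. Only 3 of the 249 promoters with the motif had it overlap another motif searched. The stretches below, of 50 bases on the strand of the gene, are those of the counted genes named here by rule that hold the motif upstream of the start, 8 higher in replicates 1 and 2 and 1, Ranbp3l, higher in replicates 3 and 4, with the ISRE letters in capitals (TTTC, any 2 bases and TTTC is the same motif on the other strand).
Rsad2, chr12:26456543-26456592, minus strand: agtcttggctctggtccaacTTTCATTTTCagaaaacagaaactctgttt
Ifit1, chr19:34640784-34640833, plus strand: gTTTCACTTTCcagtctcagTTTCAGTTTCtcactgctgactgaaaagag
Ifi213, chr1:173599316-173599365, minus strand: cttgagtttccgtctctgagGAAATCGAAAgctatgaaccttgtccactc
Stat2, chr10:128270256-128270305, plus strand: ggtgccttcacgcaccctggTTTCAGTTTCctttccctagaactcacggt
Gbp3, chr3:142559985-142560034, plus strand: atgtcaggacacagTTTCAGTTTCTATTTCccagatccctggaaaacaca
Igtp, chr11:58199502-58199551, plus strand: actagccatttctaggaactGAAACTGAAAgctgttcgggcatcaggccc
Cxcl10, chr5:92349073-92349122, minus strand: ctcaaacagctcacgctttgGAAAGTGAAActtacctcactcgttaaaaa
Ppp1r15a, chr7:45526459-45526508, minus strand: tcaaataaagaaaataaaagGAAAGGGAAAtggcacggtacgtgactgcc
Ranbp3l, chr15:8967699-8967748, plus strand: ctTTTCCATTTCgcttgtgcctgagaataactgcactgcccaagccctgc
The motif of Rsad2 begins at position -120 from the start site, that of Igtp at -34 that of Stat2 at -222 and that of Ranbp3l at -248. Ifit1 has 2 copies of the element and Gbp3 has 2 that overlap. A match is a run of letters, not a measured binding site.

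Other motifs were searched in the same way. The kappaB letters (GGGA, any 2 bases and TTCC) stood in 6 of 156 promoters (3.85%) of genes higher in replicates 1 and 2, in 1 of 121 (0.826%) of genes higher in replicates 3 and 4 and in 1.53% of all promoters. The AP-1 letters TGANTCA stood in 17 of 156 (10.9%), 6 of 121 (4.96%) and 4.71% of all. The ATF4 element TGATGNAA stood in 3.21%, 4.13% and 2.27%, the E2F letters TTTGGCGC in 0.641%, 1.65% and 1.18%, and the sterol element TCACNCCAC in 0%, 1.65% and 1.06%.

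Of 20 measured interferons, IRF and STAT genes, 3 were higher in replicates 1 and 2, where 2.00% of all genes were, and the median difference was 0.02, that of all genes. Irf7, a factor that amplifies interferon production, was at 9.72 and 9.74 in replicates 1 and 2, 8.31 and 8.32 in replicates 3 and 4, and 7.01 to 7.13 in wild type. Both pairs were above wild type, replicates 1 and 2 more so. Stat2, a subunit of the factor that binds the ISRE, was at 5.06 and 5.16, then 3.63 and 3.75, with wild type at 3.41 to 3.80. Ifnb1, interferon beta itself, was at 4.38 and 4.24, then 2.83 and 2.84, with wild type at 2.90 to 2.96, so that 5 of the 7 arrays were in the lowest 5% of signals.

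The Ifi200 family, nuclear and cytosolic DNA-binding proteins that interferon raises, had 4 of 7 measured members higher in replicates 1 and 2. Ifi209 was at 6.90 and 7.11 in replicates 1 and 2, 2.08 and 2.58 in replicates 3 and 4, and 2.46 to 2.64 in wild type. Its other probe set, also dim, had the same direction but a smallest difference of only 0.53. Ifi204 was at 6.01 and 5.72, then 2.90 and 2.70, with wild type at 3.01 to 3.39. Replicates 3 and 4 and wild type were near the lower end of the scale for both. Ifi213 and Ifi202b had wild type between the pairs. The family's median difference was 1.77 and came to 0.60 with 64 added and to 1.03 without dim genes.

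Of the interferon-inducible GTPases, which attack the vacuoles of intracellular parasites, 2 of 7 were counted. Gbp3 was at 5.80 and 5.71 in replicates 1 and 2, 3.54 and 3.53 in replicates 3 and 4, and 2.96 to 3.18 in wild type. Igtp was at 8.24 and 8.31, then 6.93 and 7.05, and 6.91 to 6.98 in wild type. Antigen presentation genes had smaller differences: all 17 measured MHC class I genes had both of replicates 1 and 2 above both of replicates 3 and 4 (42.7% of all genes). Their median difference was 0.54 and 2 of them were counted. These were Tap1, the peptide transporter, at 8.46 and 8.34 against 7.06 and 7.25, and H2-M3, a nonclassical class I molecule, at 9.89 in both against 8.79 and 8.80. Wild type lay at 7.09 to 7.26 and 8.49 to 8.58, near replicates 3 and 4 for both. Cd274 (PD-L1), which restrains T cells, was 3.03-fold higher in replicates 1 and 2.

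**Figure D3:**
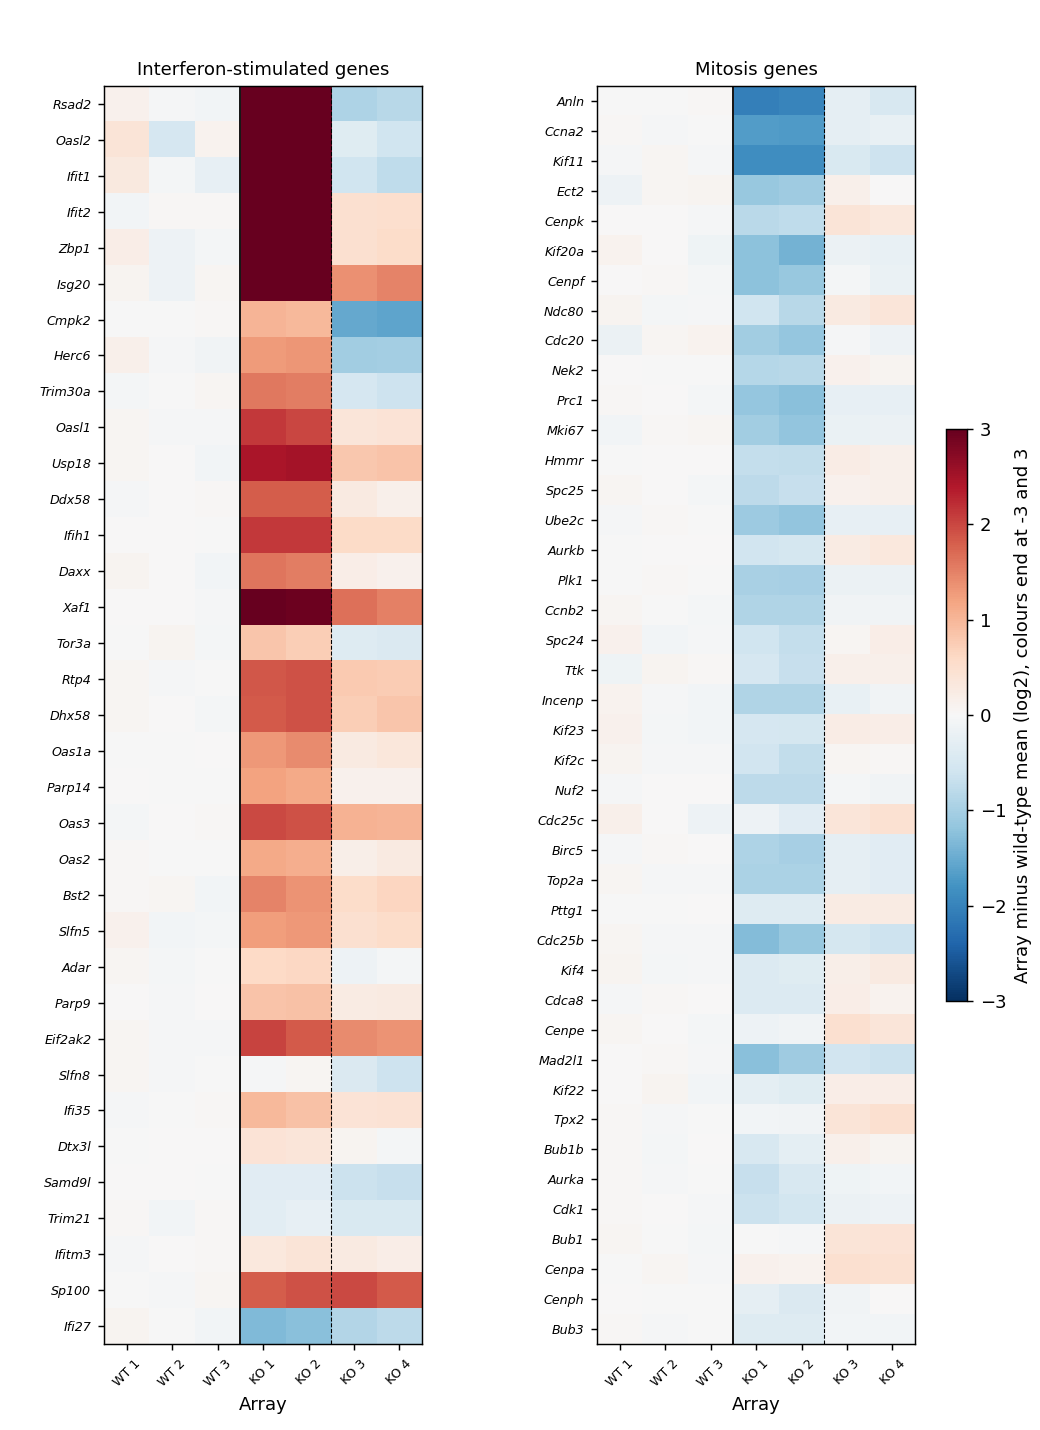
Each array minus the wild-type mean (log2, colours end at -3 and 3) for the 35 interferon-stimulated genes (left) and 42 mitosis genes (right), 1 row per gene, with wild type (WT) 1 to 3 and knockout (KO) 1 to 4 in columns. Replicates 1 and 2 are red for most interferon genes and blue for most mitosis genes, while replicates 3 and 4 are pale in most rows of both maps.

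Inflammatory cytokines differed in the same direction, with both pairs above wild type for 7 of the 9 counted. Of 18 measured on this list, which also holds Ptgs2, 9 were higher in replicates 1 and 2 and 0 in replicates 3 and 4. The median difference was 1.13, and it was 0.50 with 64 added and 0.51 without dim genes. Il6, an inducer of fever and the acute phase response, was at 7.36 and 7.32 in replicates 1 and 2 and 3.53 and 3.75 in replicates 3 and 4. Its wild-type values of at most 1.58 are among the dimmest on the arrays. Csf3, which drives the making of neutrophils, was at 8.93 and 9.19, then 5.57 and 5.69, and at 3.87 to 4.20 in wild type. Il1b was at 9.01 and 9.30, 7.14 and 7.09, and 3.92 to 4.37. These 3 genes had the order wild type, replicates 3 and 4, replicates 1 and 2, without overlap.

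Lif and Osm, neighbours on chromosome 11 that signal through gp130, had the same order. Lif was at 7.85 and 7.86, 5.73 and 5.63, and 3.64 to 4.18 in wild type. Il15, which sustains NK and memory T cells, did not: it was at 6.89 and 7.12 in replicates 1 and 2, but at 4.84 in both replicates 3 and 4, under the wild-type 5.18 to 5.39. Il1rn stood with wild type (4.96 to 5.32) in replicates 1 and 2, at 5.02 and 5.20.

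Chemokines split. Of 14 measured on this list, 6 were higher in replicates 1 and 2 and 2 in replicates 3 and 4. Ccrl2, a receptor and not a chemokine, is on the list and among the 6. Ccl5, which recruits lymphocytes and monocytes, was at 11.64 and 11.73 in replicates 1 and 2, 7.68 and 7.73 in replicates 3 and 4, and 6.44 to 6.61 in wild type, a 15.7-fold gap between pairs. Cxcl10, an interferon-inducible ligand of CXCR3, was at 9.84 and 9.85, 6.67 and 6.61, and 5.24 to 5.52. Ccl4 was at 12.33 and 12.38, 10.32 and 10.36, and 8.23 to 8.42, and its neighbour Ccl3 at 13.13 in both, 11.92 and 12.01, and 9.27 to 9.29. For these 4 genes all knockout arrays stood above wild type. The 2 that ran the other way were Ccl22, a CCR4 ligand, at 4.44 and 4.36 against 5.71 and 5.55, and Cxcl3, which recruits neutrophils, at 1.61 and 1.67 against 3.80 and 3.16. Wild type was under both pairs for Ccl22 (3.64 to 3.77) and for Cxcl3 (0.91 to 1.04), whose signals are dim.

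The NF-kB list of subunits, inhibitors and targets had 3 of 23 members higher in replicates 1 and 2 and a median difference of 0.26, with its median 0.96 above wild type in replicates 1 and 2 and 0.65 above it in replicates 3 and 4. Rel, the c-Rel subunit, was at 9.54 and 9.49 in replicates 1 and 2, 7.32 and 7.18 in replicates 3 and 4, and 4.69 to 5.30 in wild type. Traf1, an adaptor of TNF receptors, was at 8.76 and 8.88, 6.44 and 6.47, and 4.59 to 4.99. Nfkbie, an inhibitor of NF-kB, was at 8.39 and 8.35, then 6.79 and 6.98, with wild type at 6.80 to 7.07. The first 2 were above wild type in both pairs, the inhibitor in replicates 1 and 2 alone. None of the 21 measured Toll-like receptors and other sensors on the TLR list was counted, with a median difference of 0.06. With 2.00% and 1.53% of all genes counted, a 0 over 21 genes is near the background.

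Early response genes formed another large group, with 14 of 31 higher in replicates 1 and 2, 0 in replicates 3 and 4 and a median difference of 0.95. Of the 14, 7 are phosphatases that switch off MAP kinases (Dusp1, Dusp2, Dusp4, Dusp5, Dusp8, Dusp14 and Dusp16). Dusp5 was at 8.77 and 8.81 in replicates 1 and 2, 6.14 and 6.29 in replicates 3 and 4, and 4.67 to 5.06 in wild type. The orphan nuclear receptor Nr4a2 was at 8.36 and 8.26, 5.76 and 5.63, and 4.95 to 5.23, and Nr4a1 and Nr4a3 were counted as well. Phlda1 was at 10.37 in both replicates 1 and 2, 8.39 in both replicates 3 and 4 and 4.47 to 5.02 in wild type, so both pairs were far above wild type and 3.95-fold apart. Jun, a subunit of AP-1, was at 9.49 in both replicates 1 and 2 and at 8.17 and 8.11 in replicates 3 and 4, where wild type was 8.04 to 8.05. Zfp36 (tristetraprolin), which destabilises cytokine mRNA, was at 9.42 and 9.45, 8.11 and 7.98, and 6.72 to 6.89.

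Prostaglandin genes were counted for 3 of 13. Ptgs2 (COX-2), the inducible enzyme of prostaglandin synthesis, was at 11.92 and 11.82, 10.69 and 10.60, and 5.05 to 5.13 in wild type. Ptger2, a receptor for prostaglandin E2, was at 5.74 and 5.82 in replicates 1 and 2, at 2.92 and 2.60 in replicates 3 and 4 and at 3.20 to 3.82 in wild type. Ptgir, the prostacyclin receptor, was at 8.30 and 8.25, 6.96 and 7.04, and 6.11 to 6.41, with both pairs above wild type as for Ptgs2. The median of the 13 genes lay below wild type, by -0.07 in replicates 1 and 2 and -0.80 in replicates 3 and 4. Both of replicates 1 and 2 were at least 2-fold below wild type for 4 (5.84% of all genes) and above it for 4 (5.90%). Both of replicates 3 and 4 were so for 6 (2.86%) and 1 (2.62%). Of 37 stress response genes of the ATF4 and unfolded protein pathways 3 were counted, namely Atf3, Ppp1r15a and the cystine transporter Slc7a11. Slc7a11 was at 9.42 and 9.41, 8.19 and 8.10, and 5.29 to 5.68 in wild type.

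**Figure D4:**
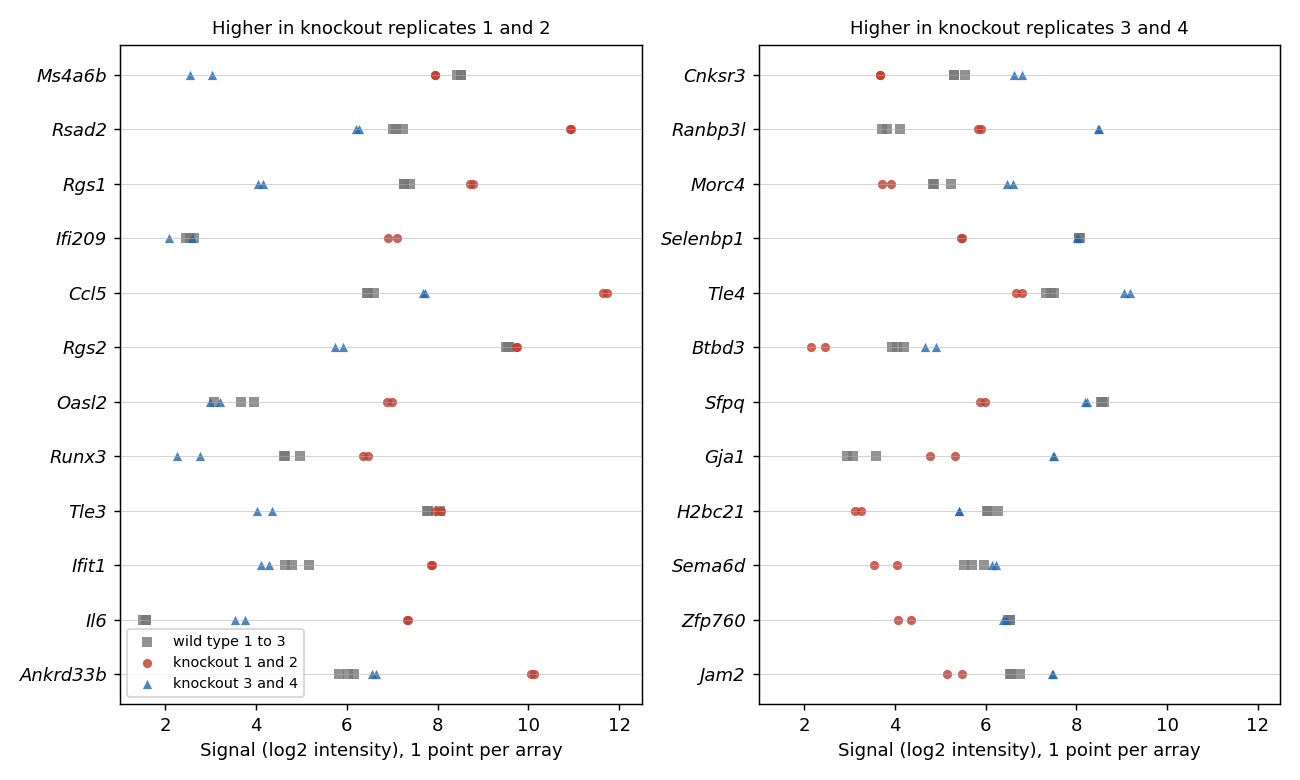
Log2 intensity on each array for the 12 genes with the largest smallest-of-4 difference in each direction, 1 point per array. In each row the red points (knockout 1 and 2) and blue triangles (knockout 3 and 4) are apart, and the grey squares (wild type) lie with one pair, between the pairs or outside both, depending on the gene.

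Among the 12 largest differences toward replicates 1 and 2 were signalling and transcription genes that are on none of these lists. Rgs1 and Rgs2, neighbours on chromosome 1, encode proteins that shut off G protein signals. Rgs1 was at 8.71 and 8.77 in replicates 1 and 2, 4.05 and 4.14 in replicates 3 and 4, and 7.26 to 7.39 in wild type. Rgs2 was at 9.72 and 9.75, then 5.73 and 5.92, with wild type at 9.50 to 9.58, so that replicates 3 and 4 alone were low. Its 3 probe sets had smallest differences of 3.81, 3.72 and 3.64.

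Tle3, a co-repressor of the Groucho family, had the same form at 8.07 and 7.95, 4.36 and 4.01, and 7.76 to 8.04, and its other probe set a smallest difference of 3.19. Tle4, of the same family, ran the other way: 6.80 and 6.67 in replicates 1 and 2, 9.17 and 9.05 in replicates 3 and 4, and 7.32 to 7.50 in wild type. Runx3, a transcription factor of leukocytes, was at 6.47 and 6.36, 2.77 and 2.26, and 4.62 to 4.96. Wild type lay between the pairs for Tle4 and Runx3. Ankrd33b, an ankyrin repeat protein, was at 10.06 and 10.12, 6.55 and 6.64, and 5.83 to 6.15, but its difference of 3.49 came to 1.69 when its probe sets were averaged.

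For 15 of the 200 genes wild type lay near replicates 1 and 2, and replicates 3 and 4 stood low. Replicates 1 and 2 averaged above wild type for 11 of these. Sema4d, a semaphorin of immune cells, was at 8.19 and 8.13 in replicates 1 and 2, 5.39 and 5.32 in replicates 3 and 4, and 8.61 to 8.63 in wild type. Prnp, the prion protein, was at 7.38 and 7.41, 4.99 and 5.10, and 7.10 to 7.31. Tnfrsf1b (TNF receptor 2), Ddx60 and Epsti1, the last 2 known as interferon-inducible, were in the same class. Ddx60 was under log2 3.54 in replicates 3 and 4, so the size of its fold is uncertain. The other probe set of Epsti1 had wild type near replicates 3 and 4 instead, at 6.37 and 6.53, 5.21 and 5.14, and 4.89 to 5.07.

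The Ms4a genes Ms4a6b, Ms4a6c and Ms4a6d, membrane proteins of myeloid cells that lie side by side on chromosome 19, were below wild type in both pairs and lowest in replicates 3 and 4. Ms4a6b had the largest difference of all named genes: 7.95 in both replicates 1 and 2, 3.02 and 2.54 in replicates 3 and 4, and 8.43 to 8.52 in wild type. Ms4a6c was at 7.50 and 7.37, 4.69 and 4.51, and 9.02 to 9.08. Ms4a6d was at 7.62 and 7.68, 5.90 and 5.80, and 9.16 to 9.23. In all 3 the order was wild type, replicates 1 and 2, replicates 3 and 4. Ms4a4c, also counted and on the same chromosome, had wild type between the pairs, at 3.72 and 3.86, 1.36 and 1.23, and 2.29 to 2.61, all dim or nearly so. Family members resemble each other, and cross-hybridisation of their probes was not tested. Adding 64 took the difference of Ms4a6b from 5.17 to 2.13, and the mean of its probe sets gave 3.29.

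Of the 19 measured Ms4a, CD300 and lectin genes together, 6 were higher in replicates 1 and 2. Clec4e (Mincle), a receptor for mycobacterial glycolipid, was at 10.99 and 11.11, 9.90 and 9.95, and 9.20 to 9.27. The list's median lay below wild type in both pairs, at -0.97 and -1.36. Syk, the kinase that such receptors and Fc receptors use, was at 7.48 and 7.53, 5.43 and 5.50, and 6.43 to 6.72. Trem2, a lipid-sensing receptor, ran the other way at 6.95 and 6.91, 8.28 and 8.36, and 10.38 to 10.43, below wild type in both pairs.

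Mitosis genes, whose mRNAs accumulate as cells prepare to divide, were lower in replicates 1 and 2. For all 42 measured members of the list, both of replicates 1 and 2 lay below both of replicates 3 and 4, as for 37.1% of all genes. The median difference was -0.73, and 6 of the 42 reached the 2-fold rule. Replicates 3 and 4 had list medians of 0.02 and 0.01 log2 from wild type and replicates 1 and 2 of -0.74 and -0.75. Both of replicates 1 and 2 were at least 2-fold below wild type for 12 members (5.84% of all genes), and both of replicates 3 and 4 for 0 (2.86%). The median kept to within 1.5 times under each alternative tried.

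Anln, anillin of the contractile ring, was at 7.96 and 8.02 in replicates 1 and 2, 9.72 and 9.53 in replicates 3 and 4, and 9.98 to 10.03 in wild type. Ccna2, cyclin A2, was at 7.57 and 7.54, at 8.97 in replicate 3 and just above that in replicate 4, and at 9.21 to 9.28. Ect2, which cells need for cytokinesis, was at 6.90 and 6.96, 8.18 and 8.04, and 7.89 to 8.12. Replicates 3 and 4 were near wild type for these genes by the 0.5 log2 rule, though below every wild-type array for Anln and Ccna2. Probe sets of one gene differed in size, with smallest differences of -1.40 and -0.37 for Ccna2 and -1.23, -0.68 and -0.17 for the spindle motor Kif11. DNA replication genes had smaller differences, with a median difference of -0.26 and 1 of 42 counted, Pole2, a subunit of DNA polymerase epsilon. It was at 6.82 and 6.79, 7.84 and 7.90, and 8.07 to 8.17. Of 11 histone genes, H2ax and H2bc21 were lower in replicates 1 and 2.

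Of the hypoxia list, 5 of 23 genes were higher in replicates 3 and 4 and 0 in replicates 1 and 2, with a median difference of -0.25. Selenbp1, a methanethiol oxidase, was at 5.48 and 5.45 in replicates 1 and 2, 8.03 in both replicates 3 and 4, and 8.06 to 8.08 in wild type. Its other probe set had a smallest difference of -2.13. Adm, the vessel peptide adrenomedullin, was at 4.56 and 4.46, 6.21 and 6.11, and 6.23 to 6.27. Both were far lower in replicates 1 and 2, with replicates 3 and 4 near wild type and slightly below it. Pdk1, which inhibits pyruvate dehydrogenase, was at 6.35 and 6.27, 7.68 and 7.56, and 8.09 to 8.24. Its other probe sets had the pairs in the same order but replicates 3 and 4 above wild type. They gave 7.15 and 6.95 against 6.01 to 6.17, and 7.51 and 7.39 against 7.02 to 7.07. Bnip3, a mitophagy receptor, and Ankrd37 were the other 2. Of the p53 and apoptosis list 4 of 24, Bnip3 again included, were higher in replicates 3 and 4, with a median difference of 0.01. Among them were Zmat3, an RNA-binding p53 target, at 6.39 and 6.50, 8.04 and 7.94, and 8.33 to 8.39, and cyclin G1 (Ccng1), at 7.67 and 7.56, 8.79 in both, and 9.29 to 9.43. The 3 probe sets of Ccng1 disagreed. Another ran the other way, at 8.41 and 8.39, 8.11 and 8.03, and 7.85 to 7.95, and the last had a smallest difference of -0.47.

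Other genes with the largest differences toward replicates 3 and 4 had no common list. Cnksr3, of a family of signalling scaffolds, was at 3.69 in both replicates 1 and 2, 6.63 and 6.81 in replicates 3 and 4, and 5.31 to 5.54 in wild type. Ranbp3l, related to a nuclear export factor, was at 5.83 and 5.89, 8.50 and 8.47, and 3.73 to 4.12. Gja1 (connexin 43), a gap junction channel, was at 5.33 and 4.78, 7.49 and 7.51, and 2.94 to 3.59. Ranbp3l and Gja1 were above wild type in both pairs. At another probe set of Gja1 the pairs overlapped, while its remaining ones had smallest differences of -2.12, -2.06 and -1.92. Jam2, an adhesion molecule of cell junctions, was at 5.48 and 5.14, 7.46 and 7.49, and 6.54 to 6.76, with wild type in between. Its other probe sets, dim or nearly so, had smallest differences of only -0.14 and -0.06. The last of these had wild type, at 2.98 to 3.40, above both pairs. With 64 added the differences of Cnksr3 and Gja1 came to -1.14 and -1.33, from -3.03 and -2.45.

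Several genes for nuclear RNA-binding proteins were in the same direction. This group was noticed after the values were seen and is given as a description. No list of such genes was drawn up, so those that did not differ or ran the other way are not counted here. Sfpq, a splicing and paraspeckle protein, was at 5.99 and 5.88 in replicates 1 and 2, 8.20 and 8.24 in replicates 3 and 4, and 8.55 to 8.61 in wild type. Its paraspeckle partner Pspc1 was at 6.22 and 6.31, 8.07 and 8.12, and 7.47 to 7.61. The helicase Ddx17 was at 8.36 and 8.24, 10.00 and 9.99, and 10.29 to 10.45. Syncrip, Rbm12, Hnrnpa2b1 and Ewsr1 were lower in replicates 1 and 2 as well. Probe sets disagreed in size: the 6 of Sfpq had mean differences from -2.28 to -0.03, those of Hnrnpa2b1 from -1.38 to -0.32, and those of Ddx17 -1.70 and -1.60. Those of Ewsr1 had -1.23 and -0.14. Which transcript forms the probe sets read was not tested.

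A second probe set was measured for 71 of the 200 genes and 87 of the 153. It had all 4 differences in the same direction for 59 and 60 of them and past 2-fold for 31 and 24. It had all 4 in the opposite direction for 4 and 16, and for 0 and 0 past 2-fold. Over all genes with another probe set, 51.3% had it in one direction with the first. Averaging the probe sets of each gene gave 181 and 106 genes.

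Several lists of metabolism and protein synthesis had no counted member; with 2.00% and 1.53% of all genes counted, a 0 over lists of this size is near the background. Of 20 cholesterol synthesis genes 0 were counted, and the list's median was 0.62 above wild type in replicates 1 and 2 and 0.62 in replicates 3 and 4. Their median difference between pairs was 0.20, against 0.02 over all genes. Of 27 cytosolic ribosomal proteins, 37 oxidative phosphorylation genes and 31 proteasome genes, 0 were counted, with median differences of -0.01, -0.02 and 0.07. Of the 13 macrophage markers 0 were counted, with medians of -0.58 and -0.57 against wild type.

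**Figure D5:**
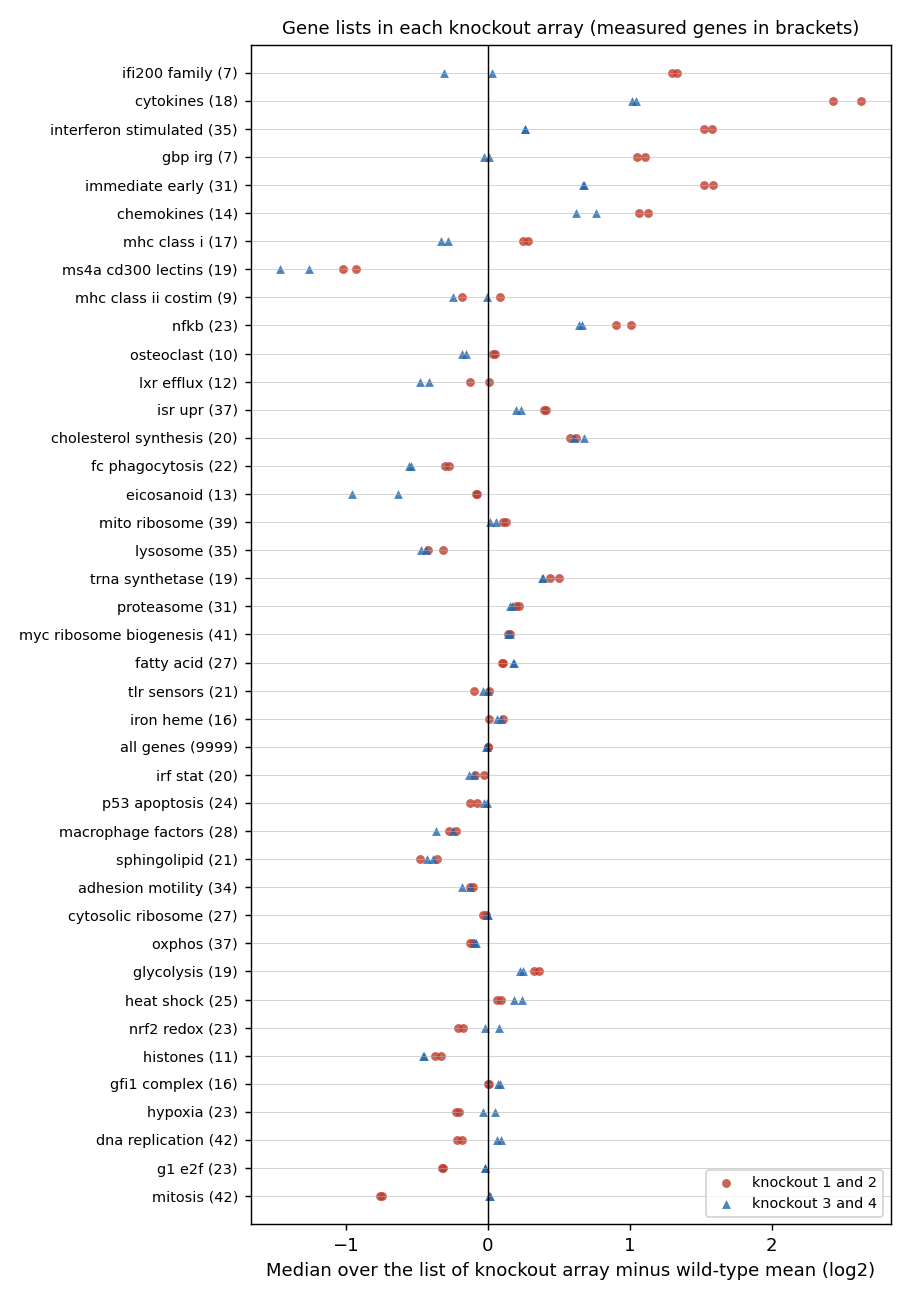
Median over each gene list of knockout array minus wild-type mean (log2), 1 point per knockout array, lists ordered by the difference between pairs, measured genes in brackets. The points of the pairs are farthest apart for the Ifi200, cytokine and interferon lists at the top and the mitosis list at the bottom, and lie together near 0 for all genes.

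Some of the counted genes are neighbours in the gene order of the reference. There were 18 runs of adjacent measured genes, with 39 genes, higher in replicates 1 and 2 and 8 runs, with 16 genes, higher in replicates 3 and 4. Beside those named above they include Oasl1 and Oasl2 on chromosome 5, Ifi213 and Ifi209 on chromosome 1, Sema4d and Syk on chromosome 13, and Tmem176a and Tmem176b on chromosome 6. Tmem176a was at 8.27 and 8.38, 9.51 and 9.56, and 10.11 to 10.17. Per chromosome with at least 200 measured genes, the median difference between pairs lay between -0.06 and 0.07.

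Against wild type, the comparison that the labels do state, limma called 2149 genes higher (21.5%) and 2156 lower (21.6%) in all 4 knockout arrays together at an adjusted p of 0.05. Without wild-type replicate 2 the higher count was 1379, and without wild-type replicate 3 it was 1404. With wild type and each knockout pair as random blocks, 448 were higher and 456 lower. Of the 200 genes 82 were called higher and 7 lower, and of the 153 genes 4 were called higher and 47 lower, in all 44.5% and 33.3% against 43.1% of all genes. With the random blocks 43 and 21 were called.

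Examples were taken from each position of wild type. Ptgs2, above wild type in both pairs, was 6.18 ± 0.35 log2 higher in knockout (SE, limma adjusted p = 4.15e-05, 9.21e-08 to 0.00133 over the alternatives). Irf7 was 1.97 ± 0.41 higher (limma adjusted p = 0.00768, 8.46e-07 to 0.0326). Trem2, below wild type in both pairs, had a difference of -2.78 ± 0.40 (limma adjusted p = 0.00170, 3.13e-07 to 0.0106). Rsad2, with wild type between the pairs, had 1.47 ± 1.34 (limma adjusted p = 0.405, 6.50e-07 to 0.696), and Tle3, low in replicates 3 and 4 alone, -1.77 ± 1.09 (limma adjusted p = 0.226, 6.63e-06 to 0.401). The alternatives include fits that leave out a whole knockout pair. Since the pairs were seen in these same values, a low end from such a fit restates that choice and is no test.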

How the data were processed

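RNA of 3 wild-type and 4 knockout arrays of RAW264.7 cells was measured on Affymetrix arrays. The authors deposited 1 linear intensity per probe set and array for 19431 probe sets; per the submitters' processing notes they were made with RMA (version not given in the sources used here). No control probe sets were analysed here, so RNA quality was not measured. Quantile normalization, part of RMA, hides array-wide shifts. The number of arrays limits the precision.

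Log2 was taken of each intensity. Through a platform annotation, 17335 probe sets had 1 symbol, and for each of 9999 genes the probe set of highest mean signal across the 7 arrays was kept. Knockout arrays were set against wild type with limma 3.58.1 under R 4.3.3 (lmFit and eBayes, two-sided, Benjamini-Hochberg over all genes), which was checked on simulated data. Pairs were not tested against each other. The members, pairs and 47 gene lists were chosen with earlier results of these data known. Named were Gfi1, the 12 largest differences in each direction, up to 4 counted members per list and the genes beside the threshold, plus counted list members; Ddx60, Epsti1, Tnfrsf1b, Prnp, Tmem176a, Tmem176b and the RNA-binding genes were chosen after their values were seen. Alternatives covered normalization, dim genes, 64 added to each intensity, probe sets, the size rule, blocks and leaving out arrays. Promoters came from RefSeq.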

Additional observations from a re-analysis of the deposited data

How the results depend on the processing

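The cause of the changes below was not tested. The counts are given in the order higher in replicates 1 and 2, higher in replicates 3 and 4, wild type near replicates 3 and 4, wild type near replicates 1 and 2, both pairs on one side of wild type, and wild type between the pairs. They were 200, 153, 150, 23, 140 and 40. Without the dimmest 40% of genes they were 94, 84, 88, 7, 71 and 12, with 64 added to each intensity they were 90, 32, 61, 10, 44 and 7, and with all differences at least 1.5 log2 they were 89, 32, 32, 8 and 53 for the first 5. Leaving out 1 array gave 200 to 223, 153 to 190, 146 to 182, 20 to 28, 139 to 163 and 40 to 47. Under quantile normalization, median centring, averaged probe sets and the difference of pair means each count stayed within 1.5 times.

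For knockout against wild type, random blocks gave 448 higher and 456 lower genes, and leaving out replicates 3 and 4 gave 3406 and 3408. Leaving out 1 array gave 1379 to 2182 higher and 1500 to 2289 lower. With the replicate number as a block 1947 were higher and 1858 lower. Deviations of same-numbered arrays correlated at 0.12, -0.09 and 0.11, so the numbers were not taken as pairing the samples. No result reversed its direction. A dim signal cannot be told from cross-hybridisation, which limits the folds of dim genes.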

Other observations

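Probe sets with several gene symbols or none, 2096 in all, are outside the gene counts. Of these, 27 (1.29%) were at least 2-fold higher in replicates 1 and 2 in all 4 differences and 44 (2.10%) in replicates 3 and 4. The largest difference on the arrays was among them, at a probe set that the annotation gives to both Btg3, an antiproliferative gene, and Gm7334. Its log2 intensity was 9.20 and 9.23 in replicates 1 and 2, 3.48 and 3.50 in replicates 3 and 4, and 8.04 to 8.08 in wild type. Replicates 3 and 4 alone were low there, and the smallest difference of 5.71 exceeded that of Ms4a6b. A probe set without a symbol had the largest difference the other way, at 4.75 and 4.55 in replicates 1 and 2, 8.16 and 8.04 in replicates 3 and 4, and 8.46 to 8.60 in wild type. Both were singled out after their values were seen.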
